A study of Mus musculus with 9 samples.

Results

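The genes described are those of the proteins of the cytoplasmic ribosome in cultured mouse duodenal organoids. They were taken from the gene table of the series by symbol alone: every row whose name begins with Rpl or Rps and a number, or with Rplp and a number, without the S6 kinases, whose names begin with Rps6k. This gave 95 of 24505 genes. No measured value entered the rule, but it was set with earlier results of these data known. Of the 95, 76 are the standard genes of the ribosome, 46 for the large subunit and 30 for the small subunit. A further 7 carry a pseudogene suffix, and 12 are paralogs, retrocopies or, in 1 case, a binding protein (Rps19bp1). Rpsa, Fau and Rack1 also encode proteins of the ribosome but do not have such names, and are given apart. A gene was tested where at least 2 of the 6 libraries reached the log2 of 10, which kept 92 of the 95 and 16563 genes in all. Rpl10l was listed at 0 in all 6 libraries, and Rpl39l and Rpl31-ps12 stayed under the minimum.

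Transcription was measured by GRO-seq, global run-on sequencing, in which polymerases already engaged on genes in isolated nuclei are allowed to extend labelled RNA, so that RNA being made is read and not the stored messenger RNA. The organoids, called mini-guts in the series, were grown as 3 cultures with 2 GRO-seq libraries each. RANKL is labelled as the intestinal M cell, the cell of the gut lining that samples antigen; ENRI is labelled as enterocyte, the absorptive cell; WENRC is labelled as intestinal stem cell. The culture abbreviations are not spelled out in the labels and serve as names here. The labels give no strain, genotype, age or treatment dose for any culture. The ENRI and WENRC libraries come from mouse 1 and mouse 2, while the RANKL libraries have a replicate number only. Whether the RANKL libraries come from separate animals is not stated, so their spread may be technical. H3K27me3, the repressive histone mark of the Polycomb complex PRC2, was mapped in RANKL (2 libraries, pooled by the authors) and WENRC (1 library).

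The markers of the labelled cell types were checked on the same scale. All 8 M cell markers were called higher in RANKL than in ENRI and than in WENRC. Of 7 stem cell markers, 6 were called higher in WENRC than in ENRI, and 4 in RANKL than in ENRI. Of 8 enterocyte markers, 7 were called lower in WENRC and 5 lower in RANKL than in ENRI. The cultures are mixtures, so a lower value cannot be told apart from fewer cells that transcribe the gene. The RANKL columns are also marked as combined and resequenced, and whether they were sequenced apart from the other 4 is not stated. An effect of sequencing run therefore cannot be told apart from culture for them. The ENRI and WENRC columns carry dates that follow the mouse, so date and mouse cannot be told apart there. The read depth behind the GRO-seq values is not known.

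The cytoplasmic ribosome joins a small subunit, which reads the messenger RNA, to a large subunit, which forms the peptide bond. Each holds ribosomal RNA and a set of proteins whose names begin with Rps and Rpl. Most of these proteins are needed in equal amounts. Their genes are scattered over the genome and are among the most strongly transcribed of dividing cells. Their messenger RNAs typically begin with a C followed by a run of pyrimidines, the terminal oligopyrimidine tract, through which mTOR signalling and Larp1 control their translation. In the intestine, stem and progenitor cells of the crypt divide and make many ribosomes, and differentiated cells of the villus no longer divide. Many of these genes also carry, in their introns, the genes of small nucleolar RNAs, which guide the chemical modification of ribosomal RNA.

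Promoter sequences are shown first, because the pyrimidine run at the start is the feature by which these genes are known as a class. They were found by symbol for 68 of the 95 genes in RefSeq's GRCm38.p6 annotation, 1 for each symbol. The lines below run 5' to 3' in the direction of transcription, from 90 bases before the annotated start to 15 bases from it on. Capitals mark any of 5 motifs listed further down and, at its full length in the printed window, the longest pyrimidine run that ends no more than 10 bases before the start or lies after it. The first set are genes called higher in WENRC than in ENRI:
Rpl15 (chr14:18270972-18271076, minus strand): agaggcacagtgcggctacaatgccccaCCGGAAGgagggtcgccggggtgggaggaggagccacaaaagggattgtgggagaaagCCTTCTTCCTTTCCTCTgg
Rpl38 (chr11:114668490-114668594, plus strand): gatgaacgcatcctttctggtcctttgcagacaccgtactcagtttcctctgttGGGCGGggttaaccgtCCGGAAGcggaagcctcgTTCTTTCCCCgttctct
Rpl35 (chr2:39005117-39005221, minus strand): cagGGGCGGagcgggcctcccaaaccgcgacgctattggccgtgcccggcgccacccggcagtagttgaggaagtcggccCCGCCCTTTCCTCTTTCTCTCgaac
Rps26 (chr10:128626492-128626596, minus strand): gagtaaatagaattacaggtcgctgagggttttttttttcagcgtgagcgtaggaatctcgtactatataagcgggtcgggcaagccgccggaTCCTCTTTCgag
Rps6 (chr4:86857353-86857457, minus strand): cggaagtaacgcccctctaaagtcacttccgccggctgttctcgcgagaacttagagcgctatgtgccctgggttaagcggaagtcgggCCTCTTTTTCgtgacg
In the 5 printed, a pyrimidine run of 9 to 18 bases lies at or near the start. Other genes called higher in WENRC had shorter ones, such as 2 bases in Rpl24 and 3 in Rpl26. The second set are genes whose 2 RANKL libraries stood above the 4 others, as described further down, and all but Rpl4 were also called higher in WENRC than in ENRI:
Rpl14 (chr9:120571427-120571531, plus strand): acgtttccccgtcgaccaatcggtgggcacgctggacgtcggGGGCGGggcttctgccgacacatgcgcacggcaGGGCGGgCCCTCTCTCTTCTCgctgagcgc
Rpl4 (chr9:64173297-64173401, plus strand): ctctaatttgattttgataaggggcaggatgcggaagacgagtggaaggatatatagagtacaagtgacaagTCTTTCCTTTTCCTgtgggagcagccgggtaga
Rps24 (chr14:24490588-24490692, plus strand): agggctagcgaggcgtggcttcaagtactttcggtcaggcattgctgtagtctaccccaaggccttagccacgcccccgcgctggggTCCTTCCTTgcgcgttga
Rps9 (chr7:3703951-3704055, plus strand): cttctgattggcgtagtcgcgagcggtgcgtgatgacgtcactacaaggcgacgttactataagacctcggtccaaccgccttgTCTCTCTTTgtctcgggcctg
Rps15 (chr10:80292341-80292445, plus strand): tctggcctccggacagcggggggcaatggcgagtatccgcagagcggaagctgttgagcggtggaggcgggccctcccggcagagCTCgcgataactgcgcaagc
Here the full run is 14 bases in Rpl14 and Rpl4 and 9 in Rps24 and Rps9, and Rps15 has none of more than 3. The run of Rpl4 ends before the start, and 6 of its bases lie among the 10 before it.

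Over the 68 promoters, 14 (20.6%) had a C at the annotated start followed by at least 4 pyrimidines, against 2.49% of all 27025 promoters in the table. A pyrimidine run of at least 6 bases, counting only bases between 10 before and 15 after the start, was present in 34 (50%) against 24.4% of all promoters. In the 250 bases before the start, CCGGAAG, the core bound by Ets factors, was found on either strand in 18 (26.5%) against 7.05%. GGGCGG, the core of Sp1 sites, was found in 32 (47.1%) against 32.9%. The other 3 motifs were not more frequent than elsewhere: TATAAA, the TATA box, in 5 (7.35%) against 13.0%; AAGATGG (YY1) in 3 (4.41%) against 4.53%; and CACGTG, the E-box bound by Myc, in 4 (5.88%) against 6.05%. Matches of 2 motifs may overlap, since CCGGAAG and AAGATGG share AAG. The median GC content of these 250 bases was 56.8% in the 68 promoters and 52% in all promoters. Its part in the motif shares was not tested. Of the 21 promoters of genes called higher in WENRC than in ENRI, 8 had the C start, 7 the Ets motif and 13 the run. Of the 5 promoters of tested genes highest in both RANKL libraries, 1 had the C start, 0 the Ets motif and 4 the run. The 2 sets overlap: Rpl14, Rps9, Rps15 and Rps24 are in both, so their counts are not a contrast of separate genes. Annotated starts need not be the starts used in these cells, and a match is a description of letters only.

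Ribosomal protein genes were short and strongly transcribed for their length. Undivided by length, the median log2 value of the 92 ran from 8.04 in ENRI 2 to 8.98 in WENRC 1. Over all tested genes it was 7.68 and 7.81 in these libraries. Their median length was 2892 bp, from 425 to 11771 bp, against 14031 bp for all listed genes. The log2 value divided by length (log2 of the linear value per kb) had a median of 7.02 over the 76 standard genes and 3.66 over all tested genes, and 96.9% of tested genes lay below that median of 7.02. Rpl14-ps1, annotated as a copy of Rpl14, had the highest level per kb of the 92, 9.61. Rps2 and Rps12, both of the small subunit, followed at 9.37 and 9.35. The lowest were Rpl3l, a muscle paralog of Rpl3, at 1.08, Rps4l at 3.82 and Rps15a-ps6 at 3.86. Among standard genes the span was 5.67 to 9.37 per kb, so their gene-body signals differed widely. The signal includes that of small nucleolar RNA genes inside. By library, those listed came to 34.7% to 70.0% of the linear value of Rps2 and 28.4% to 71.7% of that of Rps12. The 95 genes lay on 19 chromosomes, 15 of them on chromosome 7 and 4 on X. Other listed genes overlapped 40 of them, and the strand handling of the counting is not given in the sources used here, so signal of an overlapping partner cannot be set apart.

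**Figure D1:**
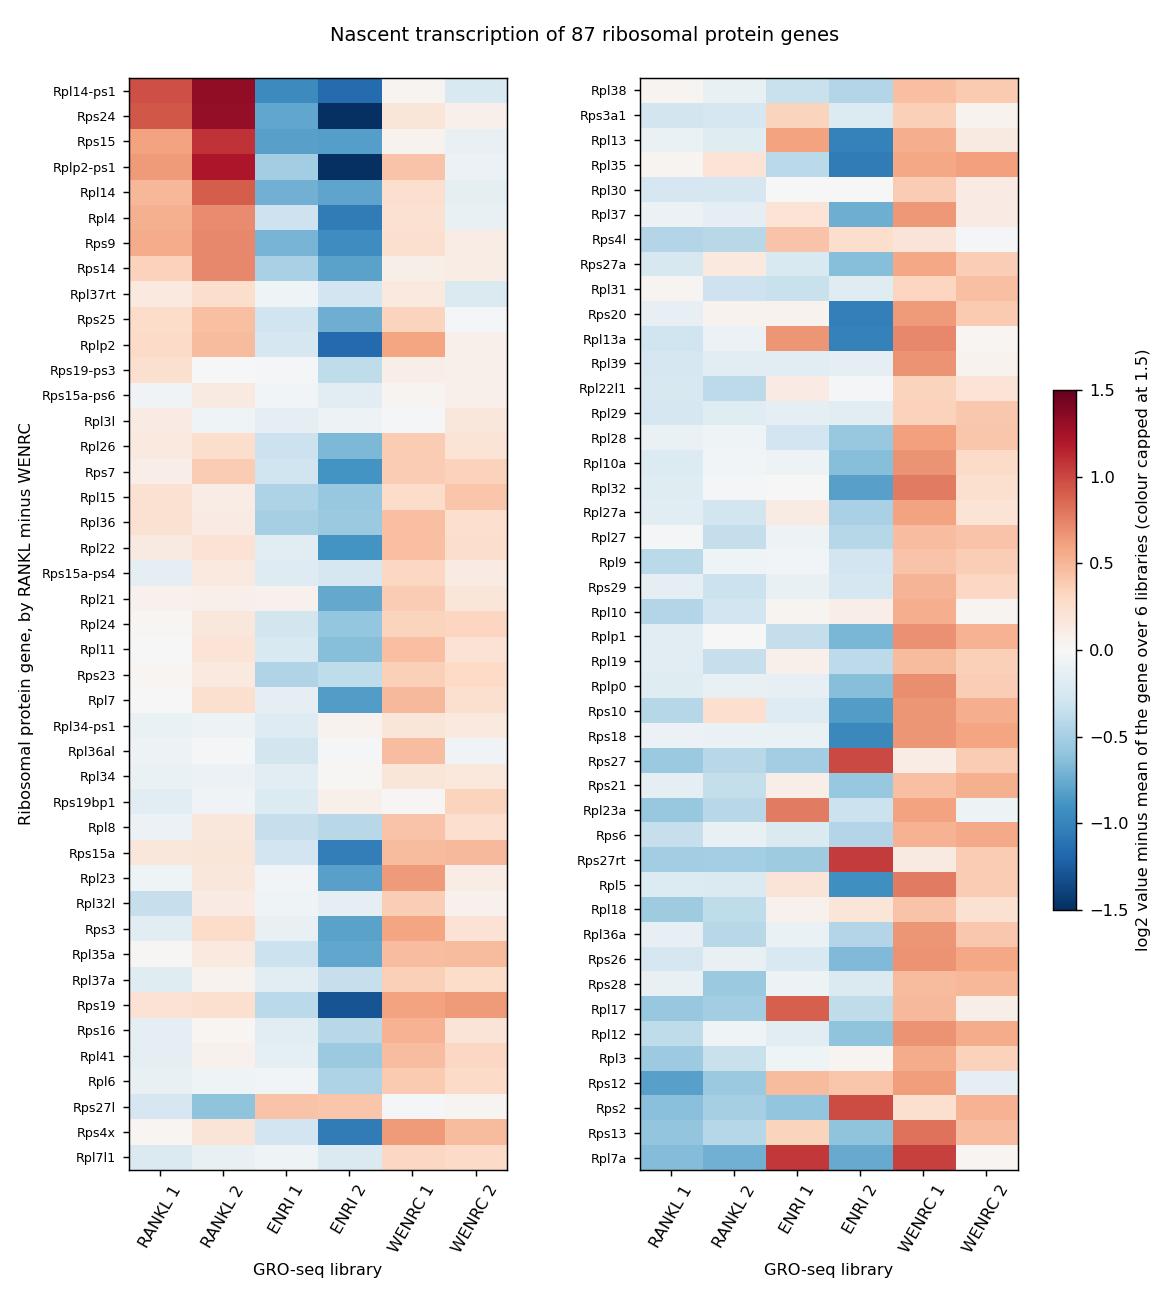
Each row is 1 of 87 of the 92 tested ribosomal protein genes, and each column 1 of the 6 GRO-seq libraries. Colour is the deposited log2 value minus the mean of that gene over the 6 libraries, red above and blue below, capped at 1.5; rows are ordered by RANKL minus WENRC. The WENRC columns are red in most rows, the ENRI 2 column holds most of the deep blue, and the 8 rows at the top are red in both RANKL libraries.

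The culture labelled as stem cell had the highest transcription of most ribosomal protein genes. The mean was highest in WENRC for 75 of 92 genes, in RANKL for 13 and in ENRI for 4. Over all tested genes these shares were 31.0%, 32.5% and 36.5%. Both WENRC libraries stood above the other 4 for 53 of the 92 (16.3% of all tested genes did so). The mean was lowest in ENRI for 60 genes, in RANKL for 32 and in WENRC for none.

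Between the stem cell culture and the enterocyte culture, 28 of 92 ribosomal protein genes (30.4%) were called higher in WENRC and 0 lower. Called means a Benjamini-Hochberg adjusted p under 0.05 over all genes tested in limma, from 1 fit of the 6 libraries. Over all tested genes 4.85% were called higher and 9.74% lower. The median difference, WENRC minus ENRI, was 0.70 on the log2 scale over the 92 genes and -0.01 over all genes, and 88 of the 92 differences were above 0. Both WENRC libraries exceeded both ENRI libraries for 73 genes (79.3%), against 29.3% of all tested genes. Both subunits took part: 13 of 46 standard large-subunit genes and 14 of 30 small-subunit genes were called higher, with medians of 0.73 and 0.83.

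The difference was present in each animal. In mouse 1, WENRC exceeded ENRI for 84 of 92 genes, with a median of 0.62. In mouse 2 it also did so for 84, with a median of 0.85, and 78 genes were higher in both mice (36.3% of all tested genes were). The number of calls rested on the fit, and the share of all genes called is not given for most of the fits below. With the replicate number as a block over 6 libraries 14 were called, all higher. That number is the mouse for ENRI and WENRC only, and no mouse is given for RANKL. In a fit of the 4 WENRC and ENRI libraries alone no gene of the genome passed, and with the block there 124 genes did but 0 of these; at an unadjusted p under 0.05 those fits gave 54 and 58 of the 92. Without ENRI 1 there were 69 calls, 66 of them higher, and without ENRI 2 there were 31. Without either RANKL or either WENRC library there were 0, with 31 to 53 at an unadjusted p under 0.05.

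Among the 8 genes with the smallest p was Rplp1, an acidic protein of the stalk that recruits elongation factors. Its values were 7.73 and 7.41 in ENRI and 8.78 and 8.61 in WENRC, a difference of 1.12 ± 0.18 (SE, limma adjusted p = 0.017). Rplp0, the base of the same stalk, had 9.26 and 8.74 in ENRI and 10.08 and 9.75 in WENRC, 0.91 ± 0.22 (limma adjusted p = 0.043). Rplp2, the partner of Rplp1, had 8.90 and 7.99 in ENRI and 9.74 and 9.23 in WENRC, and the difference of 1.04 ± 0.33 did not pass (limma adjusted p = 0.086). For all 3 stalk genes the groups did not overlap.

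Rps9, an early-binding protein of the small subunit, had 8.92 and 8.69 in ENRI and 9.85 and 9.73 in WENRC, 0.99 ± 0.15 (limma adjusted p = 0.015). Rps6, the substrate of the S6 kinases downstream of mTOR, had 8.39 and 8.17 in ENRI and 9.13 and 9.18 in WENRC, 0.87 ± 0.16 (limma adjusted p = 0.023). Rps26, which sits near the exit of the messenger RNA, had 8.24 and 7.80 in ENRI and 9.14 and 9.05 in WENRC, 1.07 ± 0.19 (limma adjusted p = 0.021). In each of these both WENRC libraries lay above both ENRI libraries.

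Of the large subunit, Rpl38 had 8.47 and 8.36 in ENRI and 9.26 and 9.20 in WENRC, 0.81 ± 0.14 (limma adjusted p = 0.020). Rpl15 had 7.85 and 7.74 in ENRI and 8.58 and 8.73 in WENRC, 0.86 ± 0.15 (limma adjusted p = 0.020). Rpl35 had 7.10 and 6.45 in ENRI and 8.08 and 8.12 in WENRC, 1.32 ± 0.24 (limma adjusted p = 0.023). Rpl28 completed the 8, with 7.18 and 6.90 in ENRI, 8.08 and 7.88 in WENRC and a difference of 0.94 ± 0.18 (limma adjusted p = 0.025). The greatest difference of any called gene was that of Rps19, a protein of small-subunit maturation, at 1.47 ± 0.28, and its ENRI libraries were far apart at 8.49 and 7.60. The 4 genes on the other side of 0 were Rps12 (-0.21), Rps4l (-0.26), Rps27l (-0.41) and Rps27rt, at a difference that rounds to 0, and none passed the test.

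**Figure D2:**
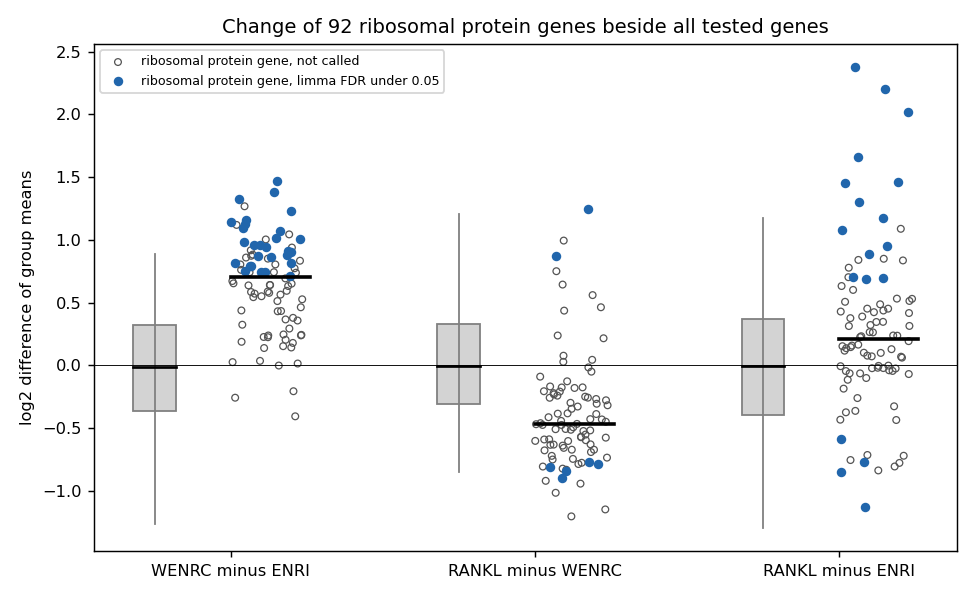
The vertical axis is the log2 difference of group means in each of the 3 comparisons. Grey boxes give the quartiles of all tested genes with lines to the 5th and 95th percentiles; circles are the 92 ribosomal protein genes, filled where called, with a black bar at their median. The bars lie at 0.70, -0.47 and 0.21, while the medians of all genes are at 0.

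Between the M cell culture and the stem cell culture, ribosomal protein genes were mostly lower in RANKL, and a few were higher. The median of RANKL minus WENRC was -0.47, against -0.01 over all genes, and 79 of 92 differences were below 0. Both RANKL libraries lay under both WENRC libraries for 69 genes (75%), against 34.5% of all tested genes, and above both for 8, against 34.1% of all tested genes. The test called 5 lower and 2 higher; over all genes 3.62% were called lower and 8.53% higher. This comparison shares its WENRC libraries with the one above.

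The count of 7 is a low one among the fits that were run, and the share of all genes called in the others is not given. Fitted on the 4 RANKL and WENRC libraries alone, 52 were called, 45 lower and 7 higher, and the authors' deposited table called 51, 43 lower and 8 higher. The ENRI libraries enter the shared error of the fit on 6, and leaving out ENRI 1 or ENRI 2 gave 50 and 52. Leaving out either RANKL or either WENRC library gave 0, with 13 to 25 at an unadjusted p under 0.05. Among the called genes 28.6% were higher, and with upper-quartile recentring, which moved the median of all genes to -0.12, 2 of 24 were (8.33%).

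The lower genes belong to both subunits. Rpl3, which lies beside the peptidyl transferase centre, had 10.52 and 10.73 in RANKL and 11.63 and 11.42 in WENRC, a difference of -0.90 ± 0.15 (limma adjusted p = 0.019). Rpl18 had 7.83 and 7.99 in RANKL and 8.80 and 8.60 in WENRC, -0.79 ± 0.15 (limma adjusted p = 0.027). Rps6 had 8.27 and 8.50 in RANKL, against the 9.13 and 9.18 given above, -0.77 ± 0.16 (limma adjusted p = 0.032). These groups did not overlap. Rps26 (-0.81 ± 0.19, limma adjusted p = 0.045) and Rpl12 of the stalk base (-0.84 ± 0.20, limma adjusted p = 0.048) were also called lower. Rpl7a had the largest negative difference, -1.20 ± 0.61, with WENRC libraries as far apart as 10.36 and 9.36, and was not called (limma adjusted p = 0.25).

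Between the M cell and enterocyte cultures the genes went both ways. Of the 92, 14 (15.2%) were called higher in RANKL and 4 (4.35%) lower, and over all tested genes 10.4% were called higher and 10.5% lower. The median difference was 0.21, with 60 above 0 and 32 below. Both RANKL libraries lay above both ENRI libraries for 37 genes (40.2%), against 32.4% of all genes, and below both for 13, against 32.3%. Leaving out ENRI 1 raised the count to 45, 37 of them higher, and leaving out RANKL 1 or RANKL 2 left 2 and 0 (22 and 17 at an unadjusted p under 0.05). Leaving out either WENRC library, which enters only the shared error, gave 7. The 4 libraries alone gave 7, or 6 with the replicate number as a block. The share of all genes called in these other fits is not given.

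Of the genes called higher in RANKL than in ENRI, 10 were also called higher in WENRC than in ENRI, in comparisons that share the ENRI libraries: Rpl14, Rpl14-ps1, Rpl15, Rpl26, Rpl36, Rps9, Rps14, Rps15, Rps19 and Rps24. A smaller group was highest in RANKL. Both RANKL libraries exceeded the 4 others for Rpl4, Rpl14, Rpl14-ps1, Rplp2-ps1, Rps9, Rps14, Rps15 and Rps24. That is 8 of 92, where 20.3% of all tested genes had such an order. The reverse order, both RANKL libraries under the 4 others, was seen for 13 of the 92, among them Rpl3, Rpl18, Rps12 and Rps27l, and for 16.9% of all tested genes.

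Rps24, a small-subunit protein of early ribosomal RNA processing, moved most. It had 10.33 and 10.71 in RANKL, 8.62 and 7.67 in ENRI and 9.58 and 9.47 in WENRC. RANKL minus ENRI was 2.38 ± 0.32 (limma adjusted p = 0.0074), and RANKL minus WENRC was 0.99 ± 0.32 (limma adjusted p = 0.10). The 3 cultures did not overlap, in the order ENRI, WENRC, RANKL.

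Rps15, of the small-subunit head, had 9.62 and 10.09 in RANKL, 8.20 and 8.19 in ENRI and 9.07 and 8.91 in WENRC. It was the standard gene called in all 3 comparisons: RANKL minus ENRI 1.66 ± 0.19 (limma adjusted p = 0.0048), RANKL minus WENRC 0.87 ± 0.19 (limma adjusted p = 0.038) and WENRC minus ENRI 0.79 ± 0.19 (limma adjusted p = 0.044). Rps9, whose ENRI and WENRC values are above, had 10.17 and 10.33 in RANKL, 1.45 ± 0.15 over ENRI (limma adjusted p = 0.0038). Rps14, of the platform of the small subunit, had 9.88 and 10.25 in RANKL, 9.05 and 8.73 in ENRI and 9.61 and 9.64 in WENRC, 1.18 ± 0.19 over ENRI (limma adjusted p = 0.012). All 4 of these small-subunit genes had the same order of cultures.

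Of the large subunit, Rpl4 had 11.80 and 11.97 in RANKL, 10.95 and 10.21 in ENRI and 11.50 and 11.15 in WENRC. RANKL minus ENRI was 1.30 ± 0.27 (limma adjusted p = 0.024). Rpl14 had 9.56 and 9.97 in RANKL, 8.35 and 8.27 in ENRI and 9.31 and 8.93 in WENRC, 1.46 ± 0.20 over ENRI (limma adjusted p = 0.0082). Rpl15, Rpl26, Rpl36, Rps19 and Rps25 were also called higher, besides the 2 copies described next, with differences from 0.68 to 1.08.

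The copies need care. Rpl14-ps1, a copy of Rpl14 on chromosome 7 (mm9, chr7:52580328-52581021, plus strand), had 10.05 and 10.40 in RANKL, 8.12 and 7.92 in ENRI and 9.12 and 8.85 in WENRC, and was called in all 3 comparisons, with 2.20 ± 0.19 over ENRI (limma adjusted p = 0.0026). It lies inside Trpm4, on the opposite strand, and Trpm4 differed by -0.15 ± 0.21 between RANKL and ENRI (limma adjusted p = 0.65). The copy had the culture order of Rpl14, and reads that fit Rpl14 and its copy equally well cannot be told apart here. Rplp2-ps1 on chromosome 12 lies inside Wdr89 on the same strand, and had 8.63 and 9.20 in RANKL, 7.48 and 6.32 in ENRI and 8.42 and 7.91 in WENRC, 2.02 ± 0.42 over ENRI (limma adjusted p = 0.024). Wdr89 itself was 1.64 ± 0.41 higher (limma adjusted p = 0.038), and Rplp2 1.09 ± 0.33 (limma adjusted p = 0.066). Rpl34 with Rpl34-ps1, and Rps27 with Rps27rt, are listed at nearly the same mm9 interval and had nearly the same values. Each pair is in effect 1 measurement, but both members enter the counts given here.

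**Figure D3:**
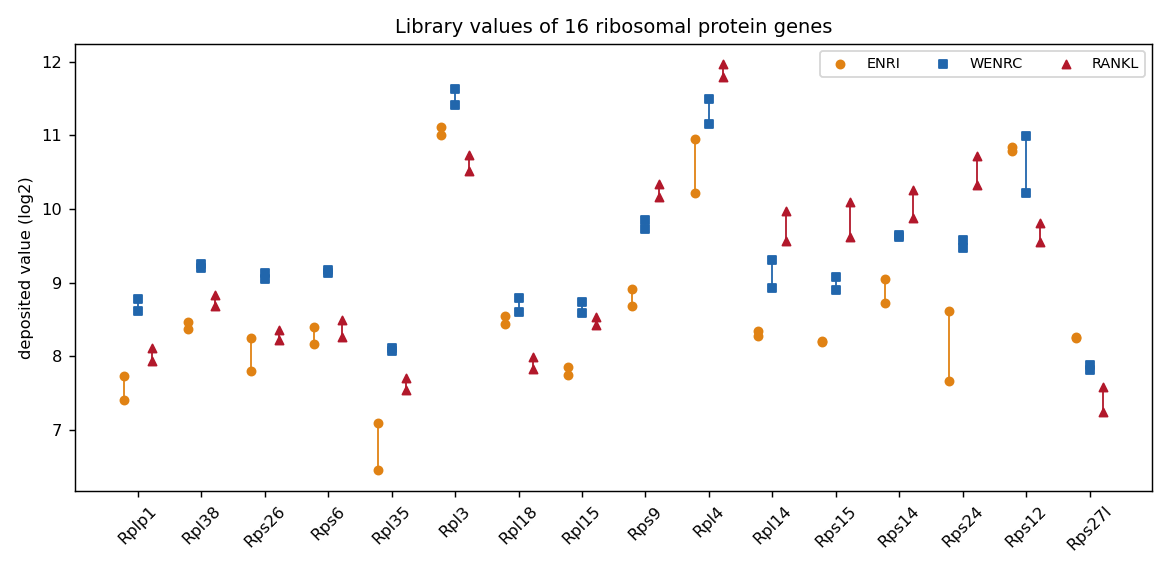
Deposited log2 values of 16 ribosomal protein genes, 2 points for each culture joined by a line. From Rplp1 to Rpl18 the WENRC squares are on top, from Rps9 to Rps24 the RANKL triangles are on top, and Rps12 and Rps27l have RANKL at the bottom.

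The 4 genes called lower in RANKL than in ENRI were Rps27l, Rps4l, Rps12 and Rpl18. Rps27l is a paralog of Rps27 that p53 induces; it had 7.59 and 7.24 in RANKL, 8.27 and 8.25 in ENRI and 7.82 and 7.89 in WENRC, a difference of -0.85 ± 0.17 from ENRI (limma adjusted p = 0.023). It was 1 of the 4 genes with its highest mean in ENRI. Rps4l had low values, 3.29 and 3.31 in RANKL and 4.15 and 3.99 in ENRI, a difference of -0.77 ± 0.18 (limma adjusted p = 0.032). Its listed interval overlaps Tmtc1. Rpl18 was lower by 0.58 ± 0.15 than in ENRI (limma adjusted p = 0.045).

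The paralog pairs did not all move together. Rps27 had 7.33 and 7.46 in RANKL, 7.36 and 8.87 in ENRI and 7.99 and 8.26 in WENRC, so its ENRI libraries lay on both sides of the others, and it was not called. Rps4x was called higher in WENRC than in ENRI (1.23 ± 0.27, limma adjusted p = 0.035), where its low copy Rps4l was at -0.26. Rpl22 had 8.97 and 8.25 in ENRI and 9.59 and 9.40 in WENRC (0.88 ± 0.25, limma adjusted p = 0.066), and its paralog Rpl22l1 had 8.34 and 8.20 in ENRI and 8.56 and 8.43 in WENRC (0.23 ± 0.15, limma adjusted p = 0.36). Rpl7 and Rpl7l1 differed by 0.85 and 0.44, Rpl36a and Rpl36al by 0.80 and 0.36, and Rpl3 and Rpl3l by 0.46 and 0.18, none of them called. Rpl10 differed by 0.22 and Rpl39 by 0.51, while Rpl10l, a testis retrocopy, and Rpl39l were not tested. In each tested pair the standard gene had the larger difference except Rps27, whose paralog had the larger one downward, and the difference between the members of a pair was not tested.

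Small nucleolar RNA genes lie inside 29 of the 92 tested genes, 56 of them by the GRCm38 gene table, and the GRO-seq signal of the host includes theirs. The comparison that follows was chosen after the values were seen. The ENRI libraries differed more in hosts: ENRI 1 minus ENRI 2 had a median of 0.77 in the 29 hosts and 0.26 in the 63 others. It was above 1 in 9 hosts and in 1 of the others, and in 4.99% of all tested genes. That count takes 1 direction only, and the lowest values were -1.57 in hosts and -1.58 in the others. WENRC 1 minus WENRC 2 had medians of 0.40 and 0.11. Between WENRC and ENRI, 1 host (Rpl12) and 27 of the 63 others were called higher, although the median difference was 0.58 in hosts and 0.75 in the others. Between RANKL and ENRI, 1 host (Rpl4) and 13 of the others were called higher.

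The small nucleolar RNA genes that the table lists apart were 28 tested rows inside these hosts. Of them 26 were lower in RANKL than in WENRC by sign, and 23 lower than in ENRI. Over all tested genes 49.3% were higher in RANKL than in WENRC by sign, and 49.5% higher than in ENRI. Several of the rows share a host, so they are not independent. In each comparison 3 were called, Snord100 and Snora65 among them, all lower in RANKL. Over all tested genes 3.62% were called lower in RANKL than in WENRC and 10.5% lower than in ENRI, the latter near the share of these rows. Snord100, a box C/D RNA in an intron of Rps12, had 6.34 and 6.80 in RANKL, 9.72 and 10.16 in ENRI and 9.09 and 8.34 in WENRC, -3.37 ± 0.31 against ENRI (limma adjusted p = 0.0032). The linear values of the 2 listed small nucleolar RNAs in Rps12 came to 28.4% and 32.2% of the host's in RANKL, 55.6% and 71.7% in ENRI and 39.1% and 38.7% in WENRC. Rps12 itself had 9.56 and 9.82 in RANKL, 10.84 and 10.78 in ENRI and 10.99 and 10.22 in WENRC, -1.13 ± 0.26 against ENRI (limma adjusted p = 0.033). The part of the listed small nucleolar RNAs in that difference was not tested.

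The ENRI libraries could also lie far apart within 1 host. The 4 small nucleolar RNAs listed in Rpl13a came to 34.5% and 32.2% of the host's linear value in RANKL, 61.7% and 44.6% in ENRI and 46.6% and 34.9% in WENRC. Snord33, a box C/D RNA among them, had 8.97 in ENRI 1 and 6.37 in ENRI 2. Rps2 went the other way between the ENRI libraries, 9.67 and 11.24, as did the Snora64 inside it, 8.14 and 10.73. Whether these differences between libraries come from nascent or from mature small nucleolar RNA was not tested.

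**Figure D4:**
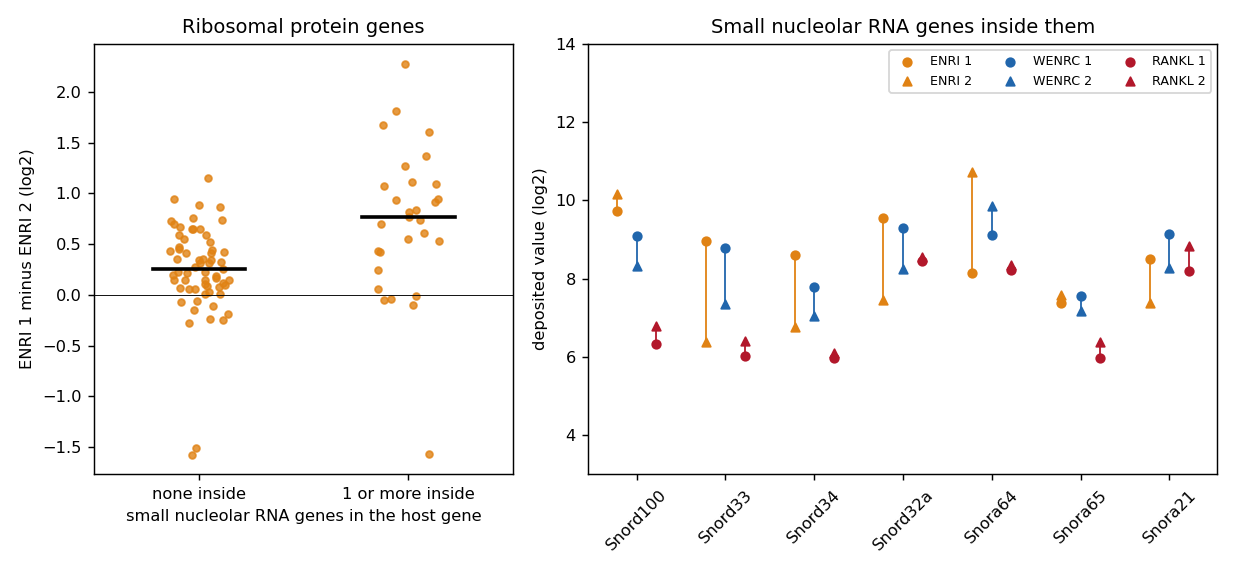
Left, ENRI 1 minus ENRI 2 (log2) for 63 ribosomal protein genes with no small nucleolar RNA gene inside and 29 with 1 or more; bars are medians, 0.26 and 0.77. Right, deposited log2 values of 7 small nucleolar RNA genes inside them, chosen after their values were seen, by library (circle 1, triangle 2); for Snord100 and Snora65 both RANKL points lie under the 4 others.

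The H3K27me3 tables list only regions that differ between RANKL and WENRC, so they do not show how common the mark is at these genes. The authors deposited 35798 regions higher in RANKL than in WENRC and 13607 higher in WENRC, each with no replicate check. A RANKL-higher region lay within 5 kb of the start of 6 of the 95 genes, against 20.9% of all listed genes, among them Rpl19, Rpl36a, Rpl39, Rps15 and Rps4x. A WENRC-higher region lay within 5 kb of 5, against 5.95% of all genes: Rpl3l, Rpl5, Rpl10, Rpl34 and Rpl34-ps1, the last pair sharing 1 region, a count near the share of all genes. Within 1 kb there were 2 genes with a RANKL-higher region (12.7% of all genes had one), Rpl39 (769 bp, fold 2.78) and Rps4x (989 bp, fold 3.65), and 1 with a WENRC-higher region (1.7%), Rpl3l (763 bp, fold 2.46). Within 10 kb there were 18 and 9 (26.9% and 10.2% of all genes), and counting the gene body with 5 kb around it 7 and 6 (28.1% and 13.6%). At an authors' fold of at least 4, 2 genes had a RANKL-higher region within 5 kb (3.2% of all genes) and 0 a WENRC-higher one (1.45%). Rps15, with a RANKL-higher region 4578 bp away, was called higher in RANKL by GRO-seq, and of the other 5 with such a region none was called in that comparison.

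Other genes of ribosome production and translation were read from lists of known members. Their counts stand beside the shares of all tested genes called higher and lower. These were 4.85% and 9.74% in WENRC against ENRI and 10.4% and 10.5% in RANKL against ENRI. In RANKL against WENRC they were 8.53% and 3.62%. Of 41 tested genes of ribosome assembly, 8 were called higher in WENRC than in ENRI and 12 higher in RANKL than in ENRI, none lower in either, and 0 were called between RANKL and WENRC. The medians were 0.67, 0.44 and -0.12. Tcof1, the treacle protein that serves ribosomal RNA synthesis, had 8.19 and 7.98 in ENRI, 9.17 and 9.21 in WENRC and 9.11 and 9.45 in RANKL, 1.11 ± 0.17 in WENRC over ENRI (limma adjusted p = 0.016) and 1.20 ± 0.17 in RANKL over ENRI (limma adjusted p = 0.0087). Polr1a, the largest subunit of RNA polymerase I, was 1.16 ± 0.21 higher in WENRC than in ENRI (limma adjusted p = 0.022), and Polr1b 0.95 ± 0.16 (limma adjusted p = 0.020). Nolc1 was 1.89 ± 0.32 and Rrs1 1.34 ± 0.26 higher in RANKL than in ENRI (limma adjusted p = 0.014 and 0.019).

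Of 39 initiation and elongation factors, 9 were called higher in RANKL than in ENRI and 0 lower, 3 higher and 0 lower in RANKL than in WENRC, and 4 higher and 1 lower in WENRC than in ENRI. Eif3a, the scaffold of initiation factor 3, had 12.65 and 12.87 in RANKL, 10.97 and 10.44 in ENRI and 11.37 and 11.33 in WENRC, 1.41 ± 0.21 over WENRC (limma adjusted p = 0.013). Eef1g (1.13 ± 0.23, limma adjusted p = 0.031) and Eif5b (0.98 ± 0.18, limma adjusted p = 0.025), which joins the subunits, were the 2 others higher than in WENRC. In WENRC against ENRI, Eif3c (0.69 ± 0.13) and Eif4e (0.70 ± 0.13) rose and Eif6, which keeps the subunits apart, fell by 0.94 ± 0.14 (limma adjusted p = 0.024, 0.024 and 0.015).

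Of 78 mitochondrial ribosomal proteins few were called, in each comparison and direction a smaller share than of all tested genes. Called higher and lower were 2 and 1 in WENRC against ENRI (median 0.17), 2 and 0 in RANKL against WENRC (-0.24), and 4 and 6 in RANKL against ENRI (-0.04). Mrpl45 was 0.90 ± 0.14 higher and Mrps18b 1.40 ± 0.22 lower in RANKL than in ENRI (both with a limma adjusted p = 0.012). Of the proteins of the cytoplasmic ribosome under other names, Fau was called higher in RANKL than in WENRC (1.12 ± 0.27, limma adjusted p = 0.048), Rack1 was not called, and Rpsa had 10.37 and 10.45 in RANKL, 10.32 and 10.54 in ENRI and 10.98 and 10.56 in WENRC with no call.

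Of 13 regulators, Larp1, the protein that binds the pyrimidine start, had 11.51 and 11.51 in RANKL, 10.79 and 10.47 in ENRI and 11.32 and 11.13 in WENRC, 0.89 ± 0.16 in RANKL over ENRI (limma adjusted p = 0.018). Rps6kb2, an S6 kinase, was called higher in RANKL than in ENRI (0.84 ± 0.20, limma adjusted p = 0.033) and than in WENRC (0.997 ± 0.20, limma adjusted p = 0.029), Yy1 higher in RANKL than in WENRC (0.58 ± 0.14, limma adjusted p = 0.049), and Max, the partner of Myc, was lower by 0.71 ± 0.14 in WENRC than in ENRI (limma adjusted p = 0.026). Myc had 9.06 and 9.40 in RANKL, 9.18 and 7.83 in ENRI and 9.26 and 9.67 in WENRC and was not called. Of 7 other small nucleolar RNA hosts, Snhg12 was called lower in RANKL than in ENRI (-0.66 ± 0.17, limma adjusted p = 0.042) and than in WENRC (-0.96 ± 0.17, limma adjusted p = 0.020), Snhg5 higher in RANKL than in ENRI (0.93 ± 0.18, limma adjusted p = 0.021), and 0 were called in WENRC against ENRI.

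**Figure D5:**
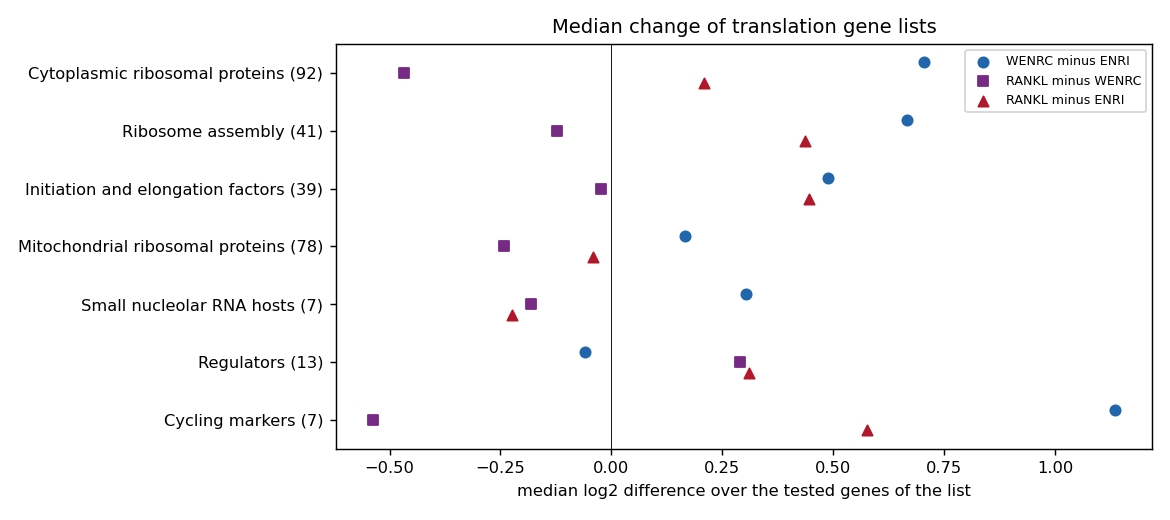
Each point is the median log2 difference of group means over the tested genes of a list, with the number tested in brackets. For ribosomal proteins the medians are 0.70, -0.47 and 0.21; for ribosome assembly 0.67, -0.12 and 0.44; the 3 comparisons share libraries.

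Markers of cell division and of other cell types moved with the same comparisons. Of 7 cycling markers, 6 were called higher in WENRC than in ENRI, 2 higher and 1 lower in RANKL than in ENRI, and 1 lower in RANKL than in WENRC. The log2 of their summed linear value ran from 12.38 to 12.59 in WENRC, 12.35 to 12.52 in RANKL and 11.21 to 11.55 in ENRI, so RANKL and WENRC overlapped in it. The enterocyte sum ran from 15.37 to 16.26 in ENRI, 14.39 to 14.47 in RANKL and 12.20 to 13.18 in WENRC, and the stem cell sum from 11.94 to 12.60, 13.98 to 14.06 and 14.33 to 14.40. Called higher and lower in RANKL against ENRI, RANKL against WENRC and WENRC against ENRI were 1 and 0, 3 and 0, and 0 and 4 of 6 goblet markers. For 5 Paneth markers they were 2 and 0, 2 and 0, and 1 and 0; for 5 enteroendocrine markers 1 and 0, 1 and 0, and 0 and 0; and for 4 tuft markers 2 and 0, 1 and 0, and 0 and 0. None of 4 fibroblast markers reached the minimum, and of 4 leukocyte markers 2 did, with 1 called higher in WENRC than in ENRI. For M cell markers 1 was called higher and 1 lower in WENRC against ENRI, for stem cell markers 1 higher and 1 lower in RANKL against WENRC, and for enterocyte markers 3 higher and 0 lower there. The part of cell composition and of division in the ribosomal protein differences was not tested.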

How the data were processed

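GRO-seq was measured in 6 libraries (3 cultures, 2 each) and H3K27me3 ChIP-seq in 3. Reads were counted by the authors over RefSeq gene bodies (mm9, HOMER), and the cultures compared in pairs, per the file headers. Per the submitters' processing notes, Bowtie2 2.3.4.1, HOMER and DESeq2 were used. The deposited values are normalized log2 values; the header names no transform, and values of weakly read genes are drawn together, so their changes are understated. No read totals could be had from them, so the depth is unknown. RANKL columns are marked in the header as combined and resequenced, and the ENRI and WENRC columns carry 2 dates, 1 per mouse. Columns of fold change as log2 with p-value and adjusted p-value are the authors' deposited comparisons, with the sign turned to first-named minus second-named. The deposited H3K27me3 tables hold regions called with the other culture as control, with tag counts for RANKL, a WENRC signal scaled by the authors to the RANKL depth, a fold as a ratio and a p-value, per the file headers.

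Genes with at least 2 libraries at the log2 of 10 or more were fitted with limma 3.58.1 in R 4.3.3 (3 group means over 6 libraries, variance trend, 3 residual degrees of freedom), with Benjamini-Hochberg adjustment over the 16563 genes and a threshold of 0.05. The script was tested on simulated data. The replicate differences of ENRI and WENRC correlated at r = 0.41 across genes, which are not independent, and the labels give both the same mouse numbers, so these libraries are paired. Genes named in the text are the 8 with the smallest p in each comparison, those called in at least 2, extremes of level per length, paralog pairs, the stalk, those near an H3K27me3 region, and the 3 smallest p per comparison in each other list; any further name was picked with its values in view. A few genes are counted but not reported by name here. The members and lists were chosen with earlier results of these data known. Alternatives were other scalings, filters and fits, a replicate block, each library left out, the authors' table and other windows. Promoters and small nucleolar RNA positions are from RefSeq on GRCm38.p6, matched by symbol, and no coordinates were moved between builds.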

Additional observations from a re-analysis of the deposited data

Results flagged for a closer look

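For 10 of the genes reported by name, the WENRC minus ENRI difference had opposite signs in the 2 mice; the difference between the mice was not tested. Of these, 4 were higher in WENRC in mouse 2 and lower in mouse 1: Rpl13 (1.15 in mouse 2, -0.06 in mouse 1), Rpl7a (0.78 and -0.05), Rpl17 (0.46 and -0.41) and Rpl23a (0.24 and -0.17). The others were lower in mouse 2 and higher in mouse 1: Rps27rt (-0.66 and 0.66), Rps27 (-0.61 and 0.64), Rps12 (-0.56 and 0.15), Rps2 (-0.46 and 0.83), Rpl10 (-0.047 and 0.50) and Rpl36al (-0.020 and 0.74). Rps27rt and Rps27 are listed at nearly the same mm9 interval. None of the 10 was called in that comparison, and Rpl10, Rpl13, Rpl17, Rpl23a, Rpl7a, Rps2 and Rps12 hold small nucleolar RNA genes.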

How the results depend on the processing

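The sign of each median was kept in every alternative run. With each library left out in turn, the median was 0.056 to 0.48 for RANKL against ENRI, -0.57 to -0.37 for RANKL against WENRC and 0.52 to 0.91 for WENRC against ENRI. The counts of called genes moved far more, from 0 to 45, 0 to 52 and 0 to 69. The alternatives differ in residual degrees of freedom, in the libraries that set the error and in scaling, and the cause of each shift was not tested. Except where stated, the share of all genes called in them is not given, so these counts do not single out ribosomal protein genes.

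Against 18 called for RANKL and ENRI, the 4 libraries compared gave 7, these with a replicate block 6, members overlapping no other listed gene 11, and an unadjusted p under 0.05 gave 32. Against 7 for RANKL and WENRC, the 4 libraries gave 52 with or without a replicate block, the replicate block on 6 libraries 2, quantile normalization 20, upper-quartile recentring 24, median recentring 12, a mean of at least the log2 of 100 gave 13, 51 passed in the authors' deposited table, members without overlap 4, and an unadjusted p 38. Against 28 for WENRC and ENRI, the 4 libraries gave 0 with or without the replicate block, the block on 6 libraries 14, quantile normalization and upper-quartile recentring 48 each, and an unadjusted p 59. Blocks that cross the RANKL numbers with the mice, added after seeing the data, gave 9 against ENRI and 65 against WENRC. RANKL-higher H3K27me3 regions were near 2 genes within 1 kb, 18 within 10 kb and 2 at a fold of at least 4, against 6; WENRC-higher ones near 1, 9 and 0, against 5. The called differences of the members chosen by the naming rule kept their direction in every fit, and each lost its call in at least 1; other named genes were not followed. No depth is known for the GRO-seq libraries, so no limit from depth can be given.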
